A study of Mus musculus with 8 samples.

Results

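Nucleic acid sensors and their adaptors were followed in 8 libraries of blood-forming progenitors from mouse bone marrow. They are 10 of the 53700 genes in the count table, taken by symbol: the RNA receptors Ifih1, Ddx58 and Dhx58, the DNA and Z-form sensors Cgas and Zbp1, the RNA-activated kinase Eif2ak2, the adaptors Mavs, Ticam1 and Myd88, and the kinase Tbk1. All 10 passed the filter on low counts, which left 12132 genes for testing. Marrow of CD45.2 donors had been placed in irradiated wild-type CD45.1 recipients, whose own cells had intact genes, and donor cells were sorted 13 weeks later. Donors were Nfat5 +/+ Vav-Cre (WT), Nfat5 fl/fl Vav-Cre (N5), IFNAR1-deficient (IFNAR), or had both the N5 alleles and the IFNAR1 deficiency (DKO). Vav-Cre recombines floxed alleles in blood-forming cells, so the Nfat5 loss was directed to that lineage; whether the IFNAR1 deficiency was limited to any cell type is not given in the sources used here. Haematopoietic stem cells (HSC) were CD48- CD150+ and multipotent progenitors (MPP) CD48+ CD150-, both within the LSK gate (lineage-negative, Sca-1+, Kit+). Each of the 8 groups was 1 library from a pool of 5 mice. The age of the mice is not given in the sources used here.

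These proteins report foreign or misplaced nucleic acid. RIG-I-like receptors bind RNA in the cytosol and signal through MAVS, cGAS binds DNA and makes a cyclic dinucleotide that activates STING, and endosomal Toll-like receptors use TRIF (Ticam1) or MyD88. The routes through MAVS, STING and TRIF meet at TBK1, which phosphorylates IRF3 to start type I interferon transcription. Interferon then acts through IFNAR1, and several sensor genes are known interferon targets, so the receptor lies both downstream of the sensors and upstream of their transcription. NFAT5 is a transcription factor best known for the response to osmotic stress.

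Total counts were 28871693 to 47205950 per library, and 13510 to 14781 genes had a count. The summed level of 8 HSC markers was 1694 to 2050 CPM (counts scaled to 1000000 per library) in HSC libraries and 360.4 to 476 CPM in MPP libraries. The summed level of 5 MPP markers was 258 to 552 CPM in HSC and 6812 to 11750 CPM in MPP, so the cell type labels matched their markers. The genotype labels were not borne out by the targeted transcripts. In HSC, Nfat5 stood at 33.2 CPM under the label WT, 22.7 under N5, 3.12 under IFNAR and 35.5 under DKO; in MPP it stood at 5.59, 7.69, 0.193 and 11.5 CPM. Ifnar1 had 122, 126, 113 and 35.1 CPM in HSC and 37.2, 87.9, 43.8 and 125 CPM in MPP, in the same order. Counts over a whole gene cannot separate deleted exons from those that remain, so every direction below rests on the labels alone. In bulk RNA, fewer cells with a transcript and less transcript per cell cannot be told apart. With 1 library a group, the tests compare libraries matched on the other factors, and their error is the spread left between these 8 libraries. The labels do not say whether the HSC and MPP pools of a genotype came from the same mice or donors. If they did, the pairs of a genotype comparison are not independent, while its fits, SDs and p-values count every library as independent.

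Values for each gene are given below in the order WT, N5, IFNAR, DKO, first for HSC and then for MPP. Of the 10 members, 0 passed an adjusted p of 0.05 in any of the 6 edgeR comparisons. The largest contrast between cell types was Cgas, near 0 in HSC and present in all 4 MPP libraries. The levels of Ddx58, Dhx58, Mavs and Ticam1 varied widely between libraries of 1 cell type.

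**Figure D1:**
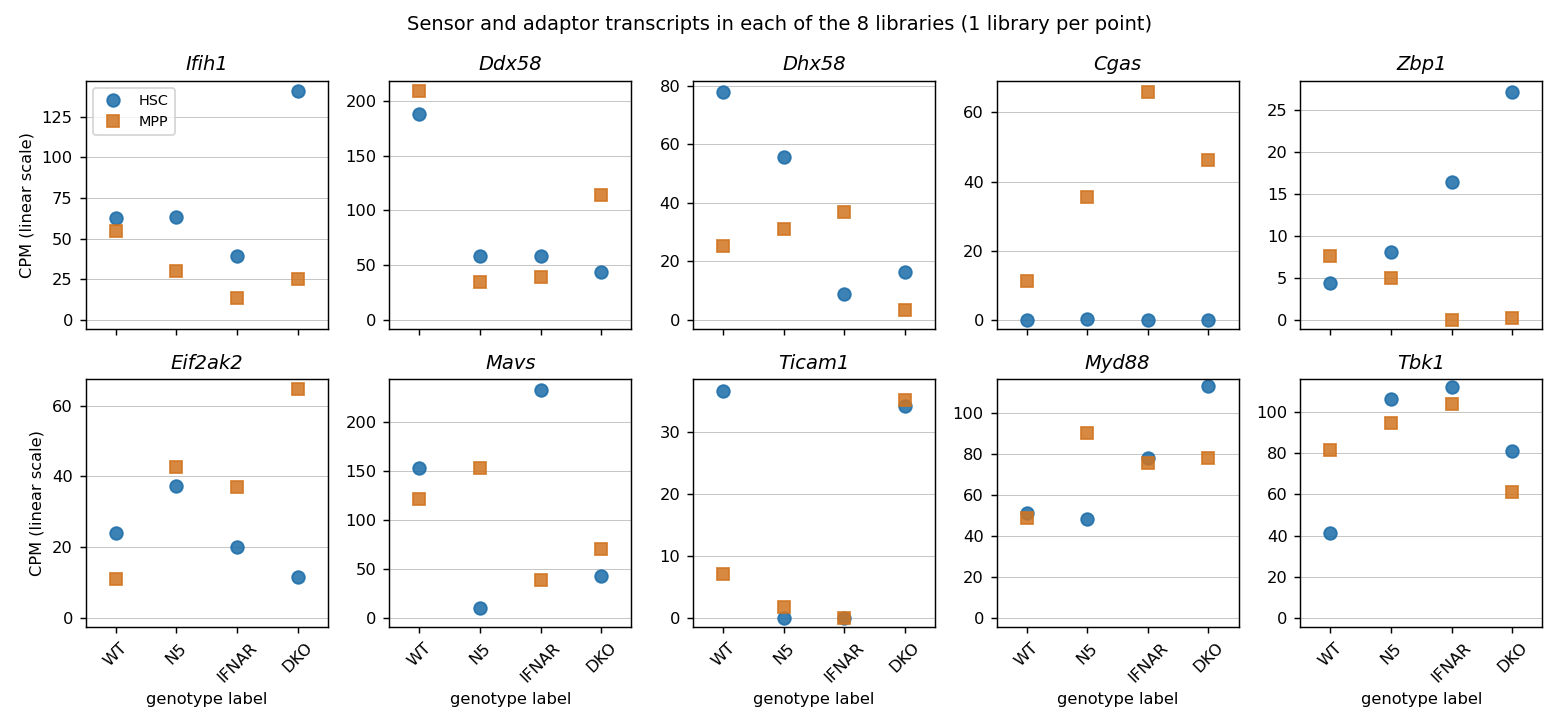
Level of each of the 10 genes in CPM on a linear scale (vertical axis, its own range in each panel) by genotype label (horizontal axis), with 1 point per library, circles for HSC and squares for MPP. Cgas lies at 0 to 0.163 CPM in the 4 HSC libraries and at 11.2 to 65.8 CPM in the 4 MPP libraries, and Ticam1 is at 0 in 3 libraries.

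Ifih1, which encodes MDA5, a receptor for long double-stranded RNA, had 62.4, 63.5, 39.5 and 140 CPM in HSC and 54.7, 30.1, 13.5 and 25.4 CPM in MPP. It was higher in HSC than in MPP for each of the 4 genotype labels, though the ranges overlapped, and its highest library was HSC labelled DKO. Ddx58 encodes RIG-I, a receptor for RNA with a 5′ triphosphate end. It had 188, 58.7, 58.3 and 43.4 CPM in HSC and 209, 34.2, 38.7 and 114 CPM in MPP. Both libraries labelled WT stood above the 6 others, and the MPP library labelled DKO came next. Dhx58 encodes LGP2, a relative of both receptors that lacks their signalling domains and modulates them. It had 77.8, 55.7, 9.02 and 16.3 CPM in HSC and 25.2, 31.0, 36.9 and 3.34 CPM in MPP. In HSC the libraries labelled WT and N5 were above those labelled IFNAR and DKO, while in MPP only the library labelled DKO was low. Its 118 counts there gave a 95% exact Poisson interval of 2.77 to 4.00 CPM, which covers counting error only, as do all intervals and floors here.

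Cgas, the cytosolic DNA sensor, had 3, 5, 0 and 6 counts in the HSC libraries (0.0869, 0.163, 0 and 0.127 CPM) and 338, 1014, 2391 and 1629 counts in the MPP libraries (11.2, 35.6, 65.8 and 46.1 CPM). The lowest MPP library was thus above every HSC library, and within MPP the library labelled WT was the lowest. Zbp1, a sensor of Z-form nucleic acid that can start necroptosis, had 4.43, 8.09, 16.5 and 27.1 CPM in HSC and 7.58, 5.02, 0 and 0.198 CPM in MPP. The MPP libraries labelled IFNAR and DKO held 0 and 7 counts, and 3 counts, taken as the detection limit, would be 0.0825 CPM in the first. Eif2ak2 encodes PKR, which is activated by double-stranded RNA and halts translation by phosphorylating eIF2. It had 24.1, 37.3, 20.2 and 11.6 CPM in HSC and 11, 42.6, 37.0 and 64.7 CPM in MPP, and the ranges of the cell types overlapped.

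Mavs, the mitochondrial adaptor of the RNA receptors, had 153, 10.2, 233 and 43.4 CPM in HSC and 121, 153, 38.8 and 70.7 CPM in MPP. The HSC library labelled N5 was the lowest of all 8, with an interval of 9.11 to 11.4 CPM. Ticam1, the adaptor of TLR3 and of TLR4 in endosomes, had 36.6, 0, 0 and 34.2 CPM in HSC and 7.11, 1.76, 0 and 35.1 CPM in MPP. It was without a count in the HSC libraries labelled N5 and IFNAR and in the MPP library labelled IFNAR, where 3 counts would be 0.0979, 0.0766 and 0.0825 CPM, and the libraries labelled DKO held 1618 and 1239 counts. Myd88, the adaptor of most Toll-like receptors and of the interleukin-1 receptor family, had 51.4, 48.4, 78.2 and 113 CPM in HSC and 48.7, 90.1, 75.7 and 78.0 CPM in MPP. Tbk1, the kinase shared by several routes, had 41.4, 106, 112 and 81.1 CPM in HSC and 81.2, 94.6, 104 and 61.1 CPM in MPP. Myd88 and Tbk1 were present in every library, and their cell type ranges overlapped.

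Between genes, levels were compared per kilobase of exon, with lengths from GENCODE M21. Mavs was at 32.9 ± 30.6 CPM per kb in HSC and 28.7 ± 15.3 in MPP (SD over 4 genotype labels). Myd88 was at 28.3 ± 11.7 and 28.4 ± 6.77, and Tbk1 at 21.8 ± 8.22 and 21.8 ± 4.72 CPM per kb. These were the 3 highest means in both cell types, and they did not differ beyond their spread. Ddx58 came next in both, with 12.4 ± 9.63 and 14.1 ± 11.7 CPM per kb. Dhx58 had 12.1 ± 9.98 in HSC and 7.37 ± 4.48 in MPP, where Cgas and Eif2ak2 had higher means. Ifih1 had 9.37 ± 5.40 CPM per kb in HSC and 3.79 ± 2.12 in MPP, and Eif2ak2 had 4.56 ± 2.10 and 7.59 ± 4.32. Ticam1 had 5.91 ± 6.83 and 3.67 ± 5.46 CPM per kb, an SD above its mean in both. Zbp1 had 3.97 ± 2.85 and 0.907 ± 1.06 CPM per kb. Cgas ranked last in HSC, at 0.0228 ± 0.0170 CPM per kb, and had 9.62 ± 5.51 in MPP, within the spread of Ddx58, Dhx58 and Eif2ak2.

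With 2 CPM added to each value, the highest HSC library stood 19.3-fold above the lowest for Ticam1, 19.2-fold for Mavs, 7.24-fold for Dhx58 and 4.20-fold for Ddx58. In MPP the widest range was that of Ticam1, at 18.5-fold, and Mavs spanned 3.80-fold. On the same scale, the highest HSC library was over 4-fold above the lowest for 4 of 9 members of mean 10 CPM or more (Ddx58, Dhx58, Mavs and Ticam1), against 34.6% of all 9278 such genes. In MPP this held for 5 of 9 (Cgas, Ddx58, Dhx58, Eif2ak2 and Ticam1), against 20.6%. At most 3 counts in some library were found for 2 of 9 members, Cgas and Ticam1, against 18.5%. Wide ranges between libraries were thus a common feature of the table, and the tests below carry that spread.

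The promoters of 8 members were matched in RefSeq (GRCm38.p6) as windows from 250 bases before to 50 bases after the start site, and Dhx58 and Zbp1 were not matched. An interferon response element (ISRE) was searched on both strands as a pair of GAAA half-sites spaced by 2 bases. The 4 windows with a match are shown because those genes are the ones in which the letters of an interferon element were found, with the match in capitals and lines 5′ to 3′ along the gene's strand.
Ifih1: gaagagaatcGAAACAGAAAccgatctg
Ddx58: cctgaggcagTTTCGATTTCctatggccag
Eif2ak2: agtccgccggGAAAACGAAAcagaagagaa
Myd88: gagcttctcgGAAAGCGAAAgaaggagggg
The capitals lie at chr2:62646214-62646223 for Ifih1 (bases 33 to 42 after the start), chr4:40239814-40239823 for Ddx58 (bases 3 to 12 after it, the match being on the opposite strand), chr17:78882545-78882554 for Eif2ak2 (bases 19 to 28 after it) and chr9:119340049-119340058 for Myd88 (40 to 31 bases before it). The same search matched 3.44% of 32851 mouse windows. A gamma-activated site (GAS), searched as TTC and GAA spaced by 3 bases, was in 2 of 8 windows, Eif2ak2 and Myd88, against 8.3% of all windows, and the Myd88 match overlapped its ISRE-like match. The consensus of NFAT5 sites (TonE) and an NF-kB consensus were in 0 of 8 windows, against 4.96% and 8.46% of all. A match is a description of letters and says nothing of binding in these cells.

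**Figure D2:**
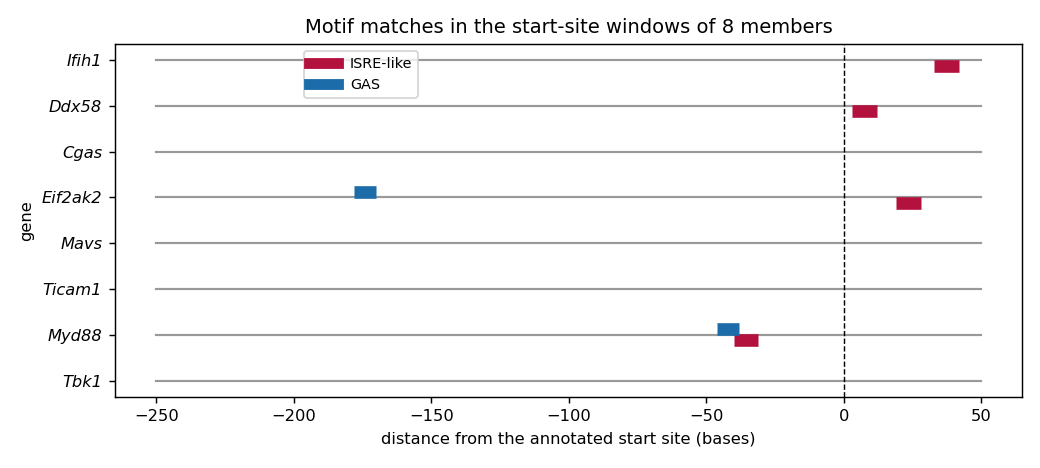
Motif matches in the start-site windows of 8 members, by distance from the annotated start site in bases (horizontal axis, dashed line at the start); grey lines are the windows, red bars ISRE-like matches and blue bars GAS matches. Ifih1, Ddx58, Eif2ak2 and Myd88 hold an ISRE-like match, and Eif2ak2 and Myd88 also a GAS match.

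Whether the sensor transcripts depend on the interferon receptor was addressed with the 4 libraries whose label includes the receptor defect and their 4 partners labelled WT or N5. Dhx58 was at 16.4 ± 14.7 CPM against 47.4 ± 24.2 CPM (SD, 4 libraries a side, HSC and MPP of 2 genotype labels). The log2 difference of Dhx58 was -1.57 (SE 0.86), and it was lower in 3 of 4 pairs. Without the MPP library labelled IFNAR the estimate was -2.71, and it ran from -1.95 to -1.24 without any other. Myd88 was at 86.3 ± 18.0 against 59.7 ± 20.3 CPM, a log2 difference of 0.55 (SE 0.29), and was higher in 3 of 4 pairs. Neither passed, with an adjusted p of 1 for all 10 members in edgeR. Ddx58 (log2 -0.68, SE 0.73) and Ifih1 (log2 -0.44, SE 0.63) were lower in 3 of 4 pairs by less than 1 SE. The other 6 members were lower in 2 of 4 pairs and higher in the other 2. Of the genes with an ISRE-like match, Ifih1 and Ddx58 had a negative estimate and Eif2ak2 (log2 0.13, SE 0.73) and Myd88 a positive one. Those of Ifih1, Ddx58 and Eif2ak2 were smaller than 1 SE and changed sign under some setting, so no direction is read from them. Whether a match goes with a response to receptor loss was not tested.

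Of all tested genes, 0% were called for Ifnar1 loss, and 3.28% had an unadjusted p under 0.05, with 0 of 10 members among them. All 4 pairs agreed on a lower level for 6.16% of genes and on a higher level for 5.9%, again with 0 members. The members' estimates were 4 positive and 6 negative with a median of -0.30, beside a median of -0.01 over all tested genes. DESeq2 called 233 genes (1.92%) in the same comparison, of which 0 were members.

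For Nfat5 loss, the 4 libraries labelled N5 and DKO were set against those labelled WT and IFNAR. The libraries are the same 8 as above, so the comparisons are not independent. Mavs was at 69.3 ± 61.0 against 137 ± 80.3 CPM (log2 -1.16, SE 1.03) and was lower in 2 of 4 pairs, both of them HSC. The estimate ran from -0.29 without the HSC library labelled N5 to -2.10 without the MPP library labelled N5. Ddx58 was at 62.6 ± 35.8 against 124 ± 87.6 CPM (log2 -0.73, SE 0.72), lower in 3 of 4 pairs, and Dhx58 had a log2 difference of -0.86 (SE 0.86), lower in 2 of 4. Myd88 was at 82.4 ± 27.0 against 63.5 ± 15.6 CPM (log2 0.39, SE 0.29), higher in 3 of 4 pairs. The adjusted p was 1 for all 10 in edgeR.

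Of all tested genes, 0% were called for Nfat5 loss and 2.79% had an unadjusted p under 0.05, with 0 members. All 4 pairs were lower for 5.35% of genes and higher for 5.79%, with 0 members in either. The estimates were 7 positive and 3 negative with a median of 0.28, beside 0.02 over all tested genes. DESeq2 called 166 genes (1.37%) in this comparison, of which 0 were members.

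**Figure D3:**
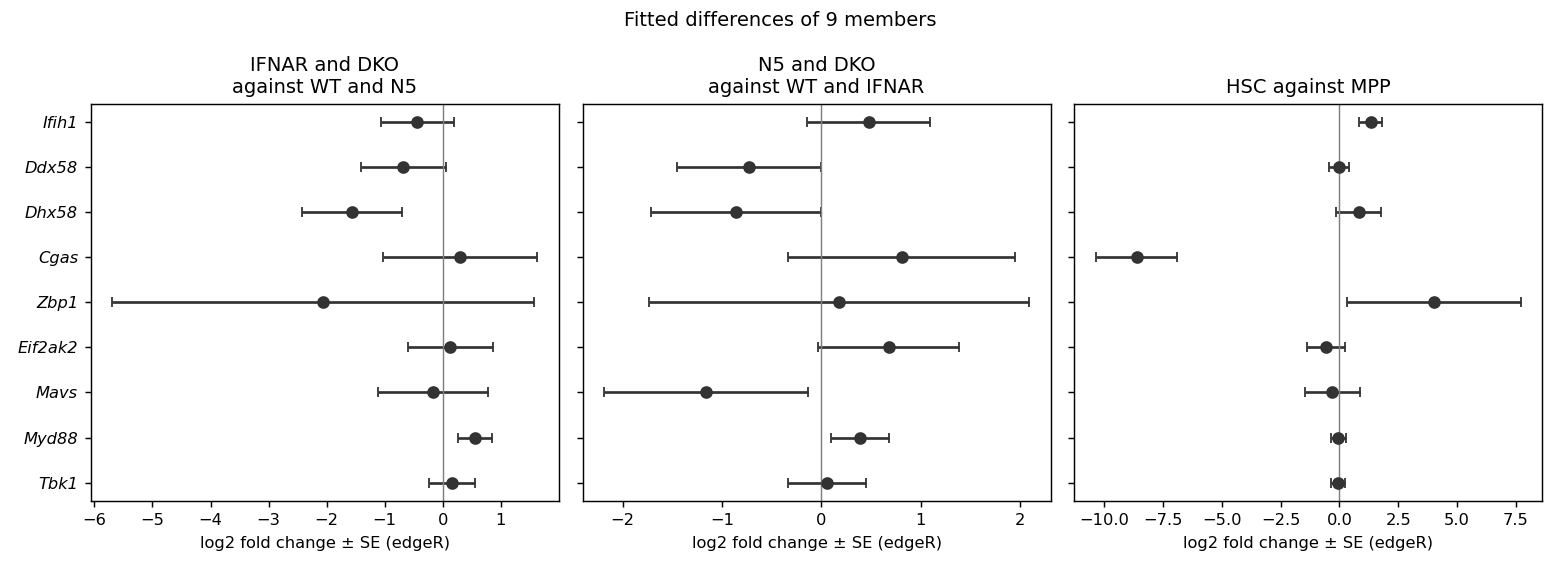
Fitted log2 fold change (horizontal axis, points) with its SE (bars) from edgeR for 9 members (vertical axis) in 3 comparisons, each panel with its own scale; Ticam1 is not drawn because libraries at 0 make its fit depend on the prior. Most bars in the left and middle panels cross 0, and Cgas stands apart in the right panel at -8.63. Zbp1 (MPP labelled IFNAR) and Cgas (HSC labelled IFNAR) also have a library at 0 counts but are drawn, so their points share this limit.

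Between cell types, Cgas was at 0.0942 ± 0.0701 CPM in HSC and 39.7 ± 22.7 CPM in MPP (SD, 4 libraries each). Summed over libraries this was 14 against 5372 counts, a ratio of library-scaled levels of 446 with a 95% exact interval of 266 to 817. The fitted log2 difference was -8.63 (SE 1.74), lower in HSC in 4 of 4 pairs with separate ranges, and the adjusted p was 0.251 in edgeR. With so few counts in HSC, Cgas could pass the filter on low counts only because all 4 MPP libraries were above its level. Its agreeing pairs and separate ranges are therefore no support apart from that filter, and its tests are those of a gene admitted in this way. DESeq2 (adjusted p = 1.08e-15), limma-voom (0.0498) and edgeR without the genotype block (0.0231) called it, and edgeR without any 1 library did not (0.475 to 0.623). Ifih1 was at 76.5 ± 44.1 CPM in HSC and 30.9 ± 17.3 CPM in MPP, a log2 difference of 1.32 (SE 0.49), higher in HSC in 4 of 4 pairs with overlapping ranges. Its adjusted p was 0.471 in edgeR and 0.0197 in DESeq2. DESeq2 called 15.5% of all tested genes in this comparison and 2 of 10 members (Cgas and Ifih1), while limma-voom called 1.29% and edgeR without the block 1.71%, with Cgas the 1 member in each. Zbp1 was at 14.0 ± 10.1 against 3.2 ± 3.73 CPM (log2 4.02, SE 3.71, adjusted p = 0.842 in edgeR) and higher in HSC in 3 of 4 pairs. The ratio of those means was 4.38-fold, below the fitted 16.2-fold, and with 1 MPP library at 0 counts the fitted size depends on the prior. It lay between 1.55 and 1.63 (log2) without either library labelled IFNAR or DKO in HSC or MPP, and between 6.67 and 6.71 without any other. With genotype as a block, leaving out 1 library also takes its partner out of this comparison. The fits without the HSC and without the MPP library of a genotype are therefore near duplicates. The other 7 members differed by less than 1 SE.

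Marker lists of other cells were read beside the Cgas difference. The summed level of 6 dendritic cell markers was 94.7 to 111 CPM in HSC and 624 to 807 CPM in MPP, most of it Flt3, which MPP also express. Of that list, Siglech, Ccr9, Xcr1 and Clec9a had 0 counts in all 4 HSC libraries. In MPP, Xcr1 had counts in all 4 libraries, Siglech had 0 in those labelled N5 and DKO, Ccr9 in those labelled IFNAR and DKO, and Clec9a in that labelled WT. Bst2 ran the other way and was higher in HSC for each genotype label. The summed level of 6 monocyte and macrophage markers overlapped between cell types (655 to 1107 CPM in HSC, 506 to 909 CPM in MPP). Of that list, Ccr2, Ly86 and Adgre1 were at 0 counts in HSC and Csf1r at 0 or 1, whereas Lyz2 was higher in HSC in 3 of 4 pairs. Neutrophil sums overlapped as well (551 to 607 and 545 to 1915 CPM), and so did those of B cells, erythroid cells, and T and NK cells. Megakaryocyte markers were higher in HSC (219 to 456 against 35.5 to 158 CPM). The sums for mast cells and basophils (0 to 40.67 against 40.74 to 121 CPM) and for stroma and endothelium (15.4 to 99.5 against 114 to 183 CPM) were higher in MPP. The mast cell and basophil ranges nearly met, and the markers disagreed. Cpa3 was higher in MPP for each genotype label. Under the label N5, Mcpt8 (12.7 against 10.5 CPM) and Prss34 (28.0 against 0 CPM) were higher in HSC. In the stroma and endothelium list, 3 of 4 markers stayed under 1 CPM in every library, and nearly all of the sum was Pecam1. That sum is therefore no measure of such cells. The part of other cells in the Cgas level was not tested. Gm8093, which shares 201 exon bases with Cgas, had 0 to 5 counts in every library.

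Of all tested genes, 0.0165% were called between the cell types and 10.1% had an unadjusted p under 0.05, with 2 of 10 members (Cgas and Ifih1) among the latter. Genes lower in HSC in 4 of 4 pairs made up 12% and genes higher 9.81%, with 1 member in each, Cgas and Ifih1. Ranges were separate and lower in HSC for 5.65% of genes, with Cgas the 1 member, which the filter admitted only through MPP. Estimates were 3 positive and 7 negative with a median of -0.06 (all tested genes -0.10), and with DESeq2 size factors 4 and 6.

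Whether the difference with Nfat5 loss requires the receptor was asked with the Nfat5 by Ifnar1 interaction. In Ddx58 the library labelled N5 was 3.14-fold below WT in HSC and 5.84-fold below it in MPP (2 CPM added), while DKO was 1.33-fold below IFNAR in HSC and 2.85-fold above it in MPP. The interaction was 2.78 on the log2 scale (SE 0.87, unadjusted p = 0.022, adjusted p = 1 in edgeR, 0.0294 in DESeq2). Ticam1 was lower in N5 than in WT in both cell types and higher in DKO than in IFNAR in both, with 0 counts in 3 of the 8 libraries. Its unadjusted p was 0.0238 and its adjusted p 1 in edgeR and 0.000107 in DESeq2, and its fitted size depends on the prior. Tbk1 ran the other way, higher in N5 than in WT and lower in DKO than in IFNAR in both cell types (log2 -1.32, SE 0.62, adjusted p = 1 in edgeR). Of all tested genes 0% were called, 3.33% had an unadjusted p under 0.05 (2 members, Ddx58 and Ticam1), and 11.2% had opposite directions with intact and with lost Ifnar1 (2 members, Tbk1 and Ticam1). DESeq2 called 3.24% of genes, with 2 members (Ddx58 and Ticam1).

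**Figure D4:**
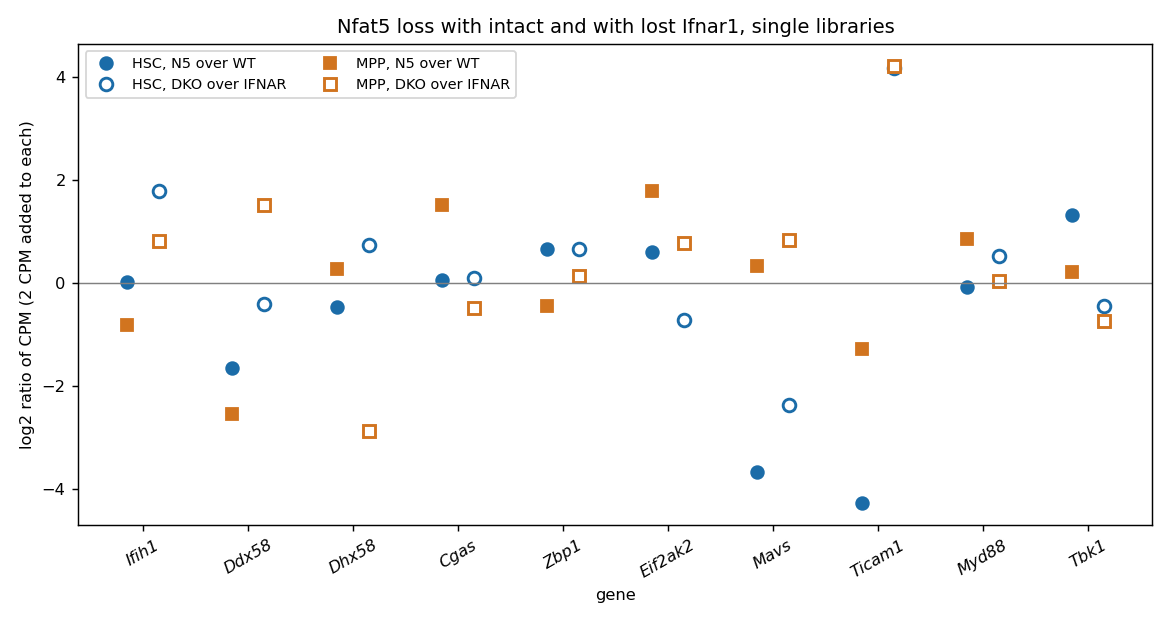
Log2 ratio of CPM between single libraries, with 2 CPM added to each (vertical axis), for each of the 10 genes (horizontal axis); filled symbols are N5 over WT, open symbols DKO over IFNAR, circles HSC and squares MPP. For Ticam1 the filled symbols lie below 0 at -4.27 and -1.28 and the open ones above 4, and for Ddx58 the filled symbols lie at -1.65 and -2.55.

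The receptor's loss was also compared between cell types. In Zbp1 the libraries labelled IFNAR and DKO were the highest in HSC and the lowest in MPP, with an interaction of 8.45 on the log2 scale (SE 3.09, unadjusted p = 0.0387) and an adjusted p of 0.999 in edgeR and 0.00132 in DESeq2. Eif2ak2 ran from lower in HSC to higher in MPP (log2 -1.83, SE 1.3), and Mavs from higher in HSC to lower in MPP (log2 2.15, SE 1.69), both with an adjusted p of 1 in edgeR. Opposite directions in the 2 cell types held for 4 of 10 members (Cgas, Eif2ak2, Mavs and Zbp1), against 12% of all tested genes. For Cgas the HSC side rests on 0 to 6 counts. For this interaction 0% of genes were called and 4.82% had an unadjusted p under 0.05 (1 member, Zbp1), and DESeq2 called 5% (1 member, Zbp1).

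Nfat5 loss likewise ran in opposite directions in Mavs, which was 12.7-fold lower in N5 than in WT and 5.17-fold lower in DKO than in IFNAR in HSC, and 1.26-fold and 1.78-fold higher in MPP. The interaction was -3.32 on the log2 scale (SE 1.34), with an unadjusted p of 0.0542 and an adjusted p of 1 in edgeR. It was the 1 member of 10 with opposite directions, against 12.2% of all tested genes. For this interaction 0% of genes were called and 4.42% had an unadjusted p under 0.05 (0 members).

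Other genes of the route were read from a list of 112, of which 85 were tested and 0 called for Ifnar1 loss in edgeR. The 18 interferon genes in it were without a count in all 8 libraries. Endosomal Toll-like receptors, named after their values were seen, failed the filter on low counts and were not tested. They had 0 counts in HSC. In MPP, Tlr3 had 7.32 ± 6.53 CPM with counts in 3 libraries, and Tlr7 had 9.46 ± 16.2 CPM with counts in 2. Tlr9 had 5.38 ± 7.37 CPM with counts in 2 libraries, and Tlr13 had 3.35 ± 6.70 CPM with counts in 1. Tlr8 had 0 counts in all 8 libraries. The share of all genes with counts in MPP alone was not computed, so no cell type difference is read from these values. Estimates for Ifnar1 loss were positive for 36 and negative for 49 of the 85, with 2 higher and 10 lower in 4 of 4 pairs and 5 at an unadjusted p under 0.05. Over all tested genes those shares were 5.9% higher, 6.16% lower and 3.28% at that p. The median was -0.12, beside -0.01 over all tested genes.

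Among the tested genes listed as brakes of the route, estimates for Ifnar1 loss were negative for 8 of 9 (median -0.78). Between the cell types all 9 were positive, higher in HSC (median 0.72). The group name is loose, since Trim56 and Isg15 in it do not act only as inhibitors, so these counts describe the list and not inhibitors as a class. Over all tested genes, 6117 of 12132 estimates were negative for Ifnar1 loss (median -0.01) and 5359 were positive between the cell types (median -0.10). For Nfat5 loss the brakes split into 4 positive and 5 negative. This group was picked out of 10 after its values were seen, and 0 of its genes were called in edgeR. Tnfaip3, a ubiquitin-editing inhibitor of NF-kB signalling, had 23.1, 95.1, 0 and 13.3 CPM in HSC and 29.9, 45.4, 0 and 0 CPM in MPP. Usp18, a protease that removes ISG15 and blunts signalling at the interferon receptor, had 48.5, 44.1, 33.3 and 28.1 CPM in HSC and 24.2, 7.83, 0.550 and 0.396 CPM in MPP. Both were lower in the libraries labelled IFNAR and DKO in 4 of 4 pairs, without passing the test. Isg15, given after its values were seen and under the level set for naming, was also lower in 4 of 4 pairs. It had 0 CPM in the libraries labelled IFNAR and DKO, against 4.27 ± 1.74 CPM in those labelled WT and N5. Its unadjusted p was 0.00286 in edgeR, and it did not pass after adjustment. With 1 side at 0, its fitted size depends on the prior. What its level says of the labels was not tested. The deubiquitinase Cyld had 82.0, 49.7, 146 and 86.8 CPM in HSC and 70.5, 19.0, 75.2 and 60.6 CPM in MPP, higher in 4 of 4 pairs (log2 0.82, SE 0.31).

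Zc3hav1, an antiviral protein that binds CpG-rich RNA, had 135, 146, 32.7 and 76.1 CPM in HSC and 171, 173, 73.8 and 138 CPM in MPP. Its log2 difference for Ifnar1 loss was -1.13 (SE 0.30, unadjusted p = 0.00817, adjusted p = 1 in edgeR). Irak2, a kinase in the MyD88 complex, had 23.0, 38.6, 0 and 24.0 CPM in HSC and 16.7, 30.8, 0 and 7.19 CPM in MPP, with both libraries labelled IFNAR at 0. Dhx9, an RNA helicase, had 6.38, 1.92, 6.80 and 32.3 CPM in HSC and 15.1, 2.77, 36.5 and 3.40 CPM in MPP, higher with Ifnar1 loss in 4 of 4 pairs (log2 1.98, SE 1.25).

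**Figure D5:**
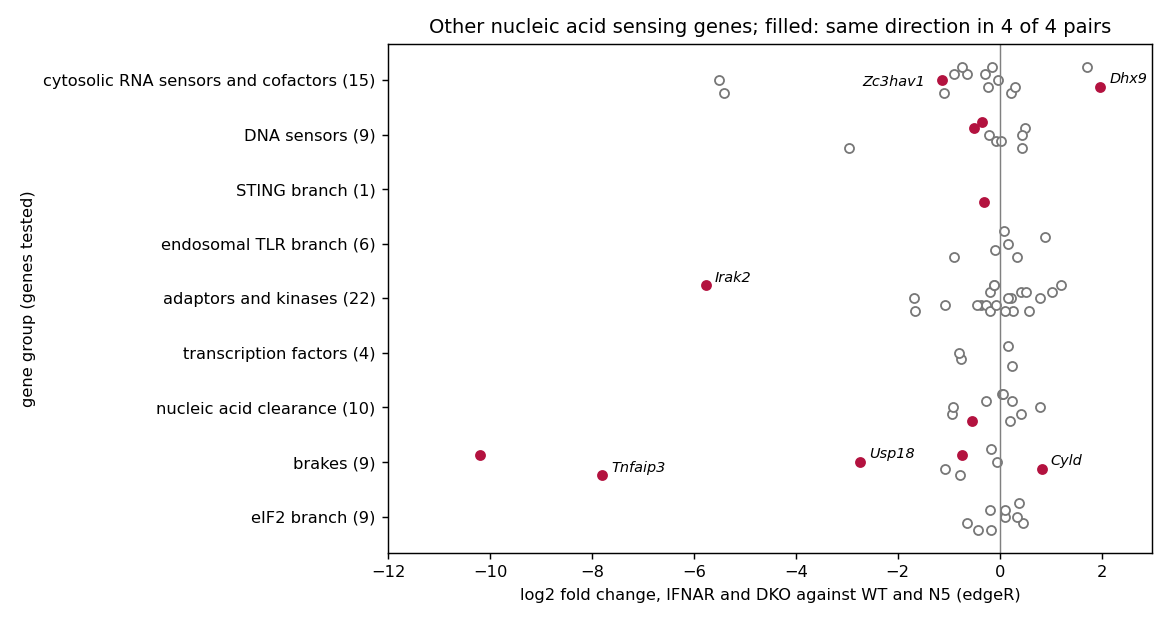
Fitted log2 fold change for Ifnar1 loss (horizontal axis, edgeR) of 85 other genes of nucleic acid sensing by gene group (vertical axis, genes tested in brackets); filled points went the same way in 4 of 4 pairs, and those of mean 10 CPM or more picked by size are named. In the brakes group 8 of 9 points lie below 0, and 0 of the 85 genes passed the test.

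The members did not move as 1 block. On the log2 scale with 2 CPM added, the pair most alike over the 8 libraries was Ifih1 and Zbp1 (Pearson r 0.83), and the pair most opposed was Ticam1 and Tbk1 (r -0.85). Cell type and depth differed between libraries, so these values are given as descriptions. The genes most like the mean scaled level of Ifih1, Ddx58, Dhx58, Zbp1 and Eif2ak2, out of 9269 ranked, were Eola1 (r 0.95), Pef1 (r 0.95), Zbtb8a (r 0.95), Serinc1 (r 0.95) and Lig3 (r 0.94). The top of so long a ranking over 8 libraries has a high r by selection. That mean also joins genes that ran against each other, such as Zbp1 and Eif2ak2 (r -0.74), so likeness to it is not likeness to each gene. Some levels include reads that cannot be assigned without strand. Myd88 shares 290 exon bases with Acaa1a, which had 82.9 to 163 CPM, and Dhx58 shares 141 with Dhx58os, which had 0 counts. Eif2ak2 shares 221 with genes on the other strand, whose levels are not analysed here.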

How the data were processed

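Polyadenylated RNA from 8 sorted pools was amplified with Smart-Seq2, per the labels' protocols, which keeps neither molecule nor strand information. The authors deposited whole-number counts per gene, without normalization; STAR 2.7.8a, RSEM 1.3.0 and GRCm39 are named in the submitters' processing notes. The annotation release is not given in the sources used here.

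Genes were tested with edgeR 4.0.16 (quasi-likelihood, installed default) under R 4.3.3. Scaling used TMM, low counts were filtered by filterByExpr within cell type, and p-values had Benjamini-Hochberg adjustment over 12132 genes at 0.05. CPM are counts scaled to 1000000 tested-gene counts after TMM. Factor fits had cell type, Nfat5 and Ifnar1 status as terms (4 residual degrees of freedom). HSC against MPP had genotype as a block, and interactions 1 added term (3 each). SE is the log2 difference over the root of F. Alternatives used DESeq2 1.42.0, limma 3.58.1 (voom), other filters and scaling, left-out libraries and subsets. Scripts were tested on simulated data.

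Members and lists were chosen with earlier results of these data known. All members were named. Of the pathway list, up to 4 a direction were named by rule: mean at least 10 CPM and 4 of 4 pairs alike, by the size of the Ifnar1 difference. Values of Isg15 and of the endosomal Toll-like receptors were given outside this rule.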

Additional observations from a re-analysis of the deposited data

Results flagged for a closer look

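The following 7 results had opposite directions in the 2 sides of a comparison, with 1 library per group. None of the 7 interactions passed an adjusted p of 0.05 in edgeR, where the adjusted p was 0.999 for Zbp1 and 1 for the rest.

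Ticam1 was lower in N5 than in WT and higher in DKO than in IFNAR in both cell types, with an interaction of 18.36 on the log2 scale that depends on the prior because 3 libraries held 0 counts. Tbk1 showed the reverse order, with an interaction of -1.32.

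Loss of Ifnar1 went opposite ways in HSC and MPP for 4 genes. The interaction was 8.45 for Zbp1, whose MPP libraries labelled IFNAR and DKO held 0 and 7 counts. It was -3.06 for Cgas, whose HSC libraries held 0 to 6 counts, so that its direction there lies at the detection limit. It was -1.83 for Eif2ak2 and 2.15 for Mavs. Loss of Nfat5 went opposite ways in the cell types for Mavs, with an interaction of -3.32.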

How the results depend on the processing

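With 1 library per group, and with marked spread between libraries, the count of calls moved with the tool. For Ifnar1 loss it was 0 in edgeR, 1 with limma-voom, 1 with the bias-adjusted quasi-likelihood and 233 with DESeq2. For Nfat5 loss it was 0, and 166 with DESeq2. For HSC against MPP it was 2, and 23 with a filter of 10 CPM in 4 libraries, 156 with limma-voom, 107 with the bias-adjusted method, 207 without the genotype block and 1880 with DESeq2; each left-out library gave 0. The interactions had 0 calls, and DESeq2 called 393 (Nfat5 by Ifnar1), 607 (cell type by Ifnar1) and 585 (cell type by Nfat5). No paired analysis by replicate number was possible because each group had 1 library. The cause of these changes was not tested.

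All 10 members were recomputed in the 3 main comparisons. Of 21 differences smaller than their SE, 19 changed sign under some setting (71 of 356 refits), and of the 9 at least as large as their SE, 3 did (4 of 158). The division at 1 SE was made after these values were seen. The refits are not independent, since for HSC against MPP those without the HSC and without the MPP library of a genotype are near duplicates. The signs of the smaller differences are therefore not stable, and no direction should be read from them.

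Signs changed as follows, in log2. For Ifnar1 loss in HSC alone, Eif2ak2 was -0.97, Ifih1 0.24, Mavs 1.34 and Zbp1 1.81, and in MPP alone Tbk1 was -0.14. With Nfat5 lost, Ddx58 was 0.65, Eif2ak2 -0.54, Ifih1 0.45, Mavs 0.48, Tbk1 -0.51 and Ticam1 7.49, and with Nfat5 intact Cgas was -0.022. Zbp1 was 0.88 with HSC and MPP summed, 0.81 with the bias-adjusted method and 0.042 with limma-voom, Ifih1 was 0.090 with limma-voom, and Ticam1 0.42 with the bias-adjusted method. For Nfat5 loss in HSC alone, Dhx58 was 0.18 and Eif2ak2 -0.088, and in MPP alone Mavs was 0.61 and Tbk1 -0.26. With Ifnar1 intact Ifih1 was -0.41 and Ticam1 -6.52, with Ifnar1 lost Ddx58 was 0.58 and Tbk1 -0.60, and Tbk1 was -0.0094 with limma-voom. For HSC against MPP, Ddx58 was 0.0013 with DESeq2 size factors and 0.0012 with DESeq2. With limma-voom, Mavs was 0.39, Myd88 0.045, Tbk1 0.019 and Ticam1 0.11. With the bias-adjusted method Mavs was 0.023 and Ticam1 0.66, and without the block Mavs was 0.20, Tbk1 0.00077 and Ticam1 0.69.

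Leaving out 1 library also changed signs. For Ifnar1 loss the ranges were -0.90 to 0.87 (Cgas), -0.44 to 0.71 (Eif2ak2), -0.94 to 0.052 (Ifih1), -0.98 to 0.84 (Mavs), -0.21 to 0.47 (Tbk1), -9.13 to 3.70 (Ticam1) and -4.92 to 0.29 (Zbp1). For Nfat5 loss they were -1.22 to 0.18 (Dhx58), -0.062 to 1.02 (Ifih1), -0.32 to 0.37 (Tbk1), -3.04 to 10.30 (Ticam1) and -1.13 to 2.18 (Zbp1). For HSC against MPP they were -0.32 to 0.41 (Ddx58), -1.17 to 0.014 (Eif2ak2), -1.30 to 0.70 (Mavs), -0.26 to 0.22 (Myd88), -0.23 to 0.23 (Tbk1) and -2.63 to 1.04 (Ticam1). Other differences of at least 1 SE kept their sign in every fit with 1 library left out. For Ifnar1 loss they ranged from -2.71 to -1.24 (Dhx58) and 0.37 to 0.79 (Myd88). For Nfat5 loss they ranged from -1.44 to -0.22 (Ddx58), -2.10 to -0.29 (Mavs) and 0.13 to 0.56 (Myd88). Of these, Ddx58 and Mavs changed sign in a subset of the libraries, as given above. For HSC against MPP the ranges were -9.29 to -7.73 (Cgas), 0.94 to 1.69 (Ifih1) and 1.55 to 6.71 (Zbp1). Each single-library ratio was recomputed with priors of 0.5 and 5 CPM, and 37 of these 160 recomputed values moved beyond their counting interval.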
